A study of Rattus norvegicus with 9 samples.

Results

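Enzymes that move amino groups between amino acids, or that break amino acids down, were followed in rat brain through 6 genes: Gpt, Got1, Got2, Glud1, Aadat and Hpd. They were taken from the 12609 gene symbols of the expression table by name, with all table rows of a symbol summed, and all 6 were present. Which of the measured values led to the list is not recorded. They were chosen by name with TPM levels and group differences of these libraries known, so all 3 comparisons of groups are treated as used in the choice. For these 6 genes, the levels, the changes and the counts of genes past a threshold are descriptions, and no p-value is given for them.

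The 9 libraries were made from total RNA of rat brain, 3 per group. Sham rats had the surgery without occlusion of the middle cerebral artery (MCAO, a model of ischemic stroke), IR rats had the occlusion, and both carry PBS as their treatment label. IR+NMN rats had the occlusion and an injection of nicotinamide mononucleotide (NMN, from which cells make NAD), given at 100 mg/kg in saline. Strain, sex, age, brain region, the times of injection and sampling, and whether a library is 1 animal could not be learned from the sources used here, so the spread between libraries may be technical.

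Transaminases pass the amino group of an amino acid to 2-oxoglutarate, which gives glutamate, and glutamate dehydrogenase can release that group as ammonia with NAD or NADP as the electron acceptor. In brain these reactions join the glutamate used as a transmitter to the citric acid cycle. The cytosolic and mitochondrial aspartate transaminases also belong to the malate-aspartate shuttle, which carries reducing equivalents of NADH into mitochondria. Gpt encodes the cytosolic alanine transaminase, Got1 and Got2 the cytosolic and the mitochondrial aspartate transaminase, and Glud1 the mitochondrial glutamate dehydrogenase. Aadat encodes a transaminase of 2-aminoadipate and kynurenine, which makes kynurenic acid, and Hpd encodes 4-hydroxyphenylpyruvate dioxygenase, an enzyme of tyrosine breakdown best known from liver.

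The transcripts of the partner enzymes Got1 and Got2 kept a similar ratio to each other over the libraries, which is set beside other genes below. Their upstream sequences are shown. Each is the 250 bases before the annotated start in RefSeq, build GRCr8, read 5′ to 3′ along the gene. Capitals mark every CCAAT and GGGCGG on either strand, and no marked stretch overlaps another.
Got1, minus strand, chr1:252329872-252330121: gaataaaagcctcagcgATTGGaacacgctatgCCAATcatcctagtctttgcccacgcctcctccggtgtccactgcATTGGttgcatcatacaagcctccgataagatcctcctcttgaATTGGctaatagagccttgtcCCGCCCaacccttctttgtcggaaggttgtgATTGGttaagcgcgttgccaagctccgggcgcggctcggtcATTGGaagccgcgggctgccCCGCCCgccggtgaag
Got2, plus strand, chr19:9180178-9180427: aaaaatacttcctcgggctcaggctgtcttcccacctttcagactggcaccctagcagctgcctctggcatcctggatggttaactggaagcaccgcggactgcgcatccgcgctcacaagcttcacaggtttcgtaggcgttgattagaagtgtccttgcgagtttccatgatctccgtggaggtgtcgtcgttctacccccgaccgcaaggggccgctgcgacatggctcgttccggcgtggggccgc
The Got1 window held 6 CCAAT and 2 GGGCGG matches, and the Got2 window held 0 of either. GC content was 56.8% for Got1 and 59.6% for Got2, against a median of 51.2% over 33469 rat windows of the same length. Of those windows 34.0% held CCAAT and 30.5% held GGGCGG. The promoter table held 5 of the 6 genes, without Gpt. In the others, Glud1 had 2 GGGCGG matches, Hpd had 1, and Aadat had 1 match to CCAAT. A search for TATAAA, found in 12.9% of all windows, and for CACGTG, found in 5.59%, gave a match in 0 of the 5. These matches describe letters in a window and not sites of binding.

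Values are TPM, transcript abundances scaled by length to the same total in every library, so sequencing depth is unknown. Changes are fitted differences of log2(TPM + 1) with their standard error (SE), from limma on all 9 libraries and 10180 genes, and "passed" means a Benjamini-Hochberg adjusted p under 0.05 over all of these genes. The median gene lay 0.21 lower in IR than in Sham on this log2 scale (-0.21), 0.041 higher in IR+NMN than in IR, and lower in IR+NMN than in Sham by 0.14 (-0.14). Between Sham and IR 116 genes were called higher and 535 lower, and quantile normalization gave 290 and 292. For IR+NMN against Sham these were 429 and 624, and then 717 and 692. Of the summed TPM, 72.7% to 78.7% stood in rows that carry a symbol. All listed markers of neurons (10), astrocytes (8) and oligodendrocytes (8), the main cell types of brain, were detected, although the astrocyte water channel gene Aqp4 was listed at 0 in Sham 3.

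Got1, Glud1 and Got2 were the abundant genes of the 6, at ranks 565, 628 and 783 of 12609 symbols by mean Sham TPM, while Gpt ranked 5589, Aadat 9037 and Hpd 9843. All 6 passed the filter of at least 1 TPM in at least 3 libraries. Hpd did so through 2 Sham, 3 IR and 1 IR+NMN libraries, and the other 5 were above 1 TPM in all 9. Together the 6 genes took 696 ± 31.7 TPM in Sham, then 576 ± 65.5 in IR, and IR+NMN stood at 471 ± 48.8 TPM (SD, n = 3 each). Table rows 2 and 3 of Glud1, described below, held 121 ± 13.8 TPM of the Sham total. Their share of the IR total was 9.90 ± 1.34 TPM, and that of the IR+NMN total was 6.76 ± 2.42 TPM. Most of the first fall of the total thus lay in these rows and not in the set as a whole. Little of the second fall did.

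**Figure D1:**
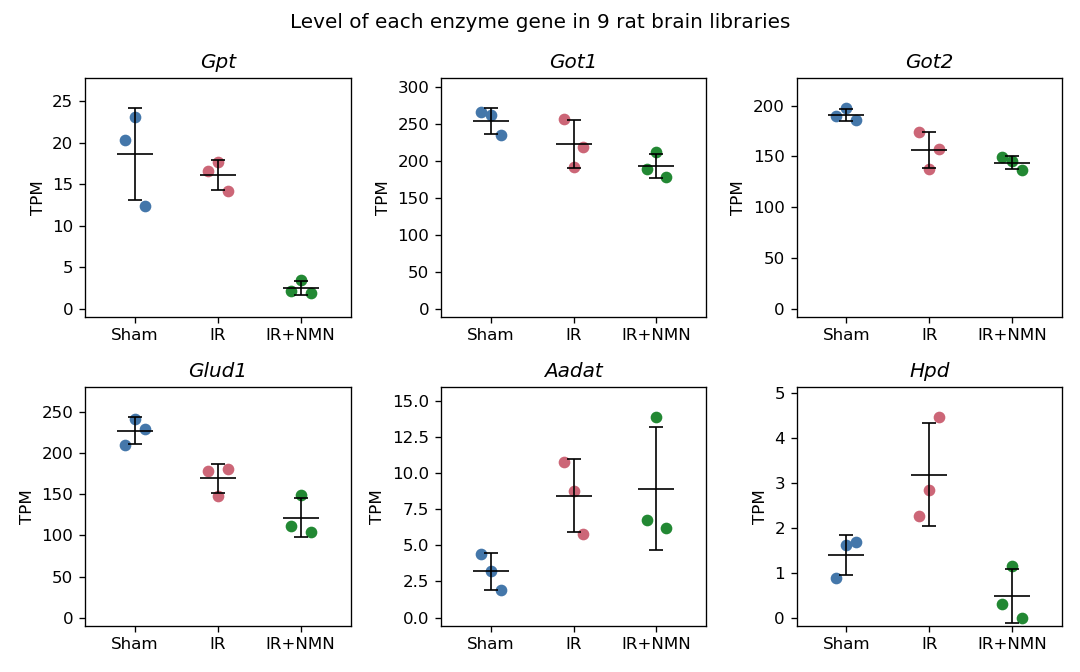
TPM of each of the 6 genes (one panel each, linear axis) in the 3 Sham, 3 IR and 3 IR+NMN libraries; points are libraries, the long dash is the mean and the bar is 1 SD. Gpt is at 1.92 to 3.52 TPM in IR+NMN and at 12.4 or above elsewhere, Hpd is highest in IR, and Aadat is lowest in Sham.

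Between Sham and IR, 0 of the 6 genes passed, where 6.39% of all genes did (1.14% higher, 5.26% lower), and 4 had an unadjusted p under 0.05, where 28.3% of all genes did. All libraries of one group lay beyond all of the other in 4 members, higher in IR for Aadat and Hpd and lower for Got2 and Glud1, where 34.3% of all genes were apart in this way (7.58% higher, 26.7% lower). Between IR and IR+NMN, 2 members passed, Gpt and Hpd, both lower in IR+NMN, where 2.36% of all genes passed in either direction, 0.0589% as lower and 2.3% as higher. The share called lower is 6 genes, with 234 higher, and was 128, with 368 higher, without IR+NMN 2. Of the members 3 had an unadjusted p under 0.05, where 13.3% of all genes did. Gpt and Hpd were also the members whose libraries lay apart, against 16.9% of all genes (13.7% higher, 3.22% lower). In IR+NMN against Sham, Gpt and Glud1 passed as lower, where 10.3% of all genes passed in either direction and 6.13% as lower (4.21% as higher), and 6 had an unadjusted p under 0.05, where 29.9% of all genes did. Libraries lay apart in 5 members, higher in IR+NMN for Aadat and lower for Gpt, Got1, Got2 and Glud1, against 33.4% of all genes (13.0% higher, 20.4% lower). Nothing is read from these counts, since the choice of the genes used the same comparisons. The comparisons share libraries, so their values are not independent of each other.

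**Figure D2:**
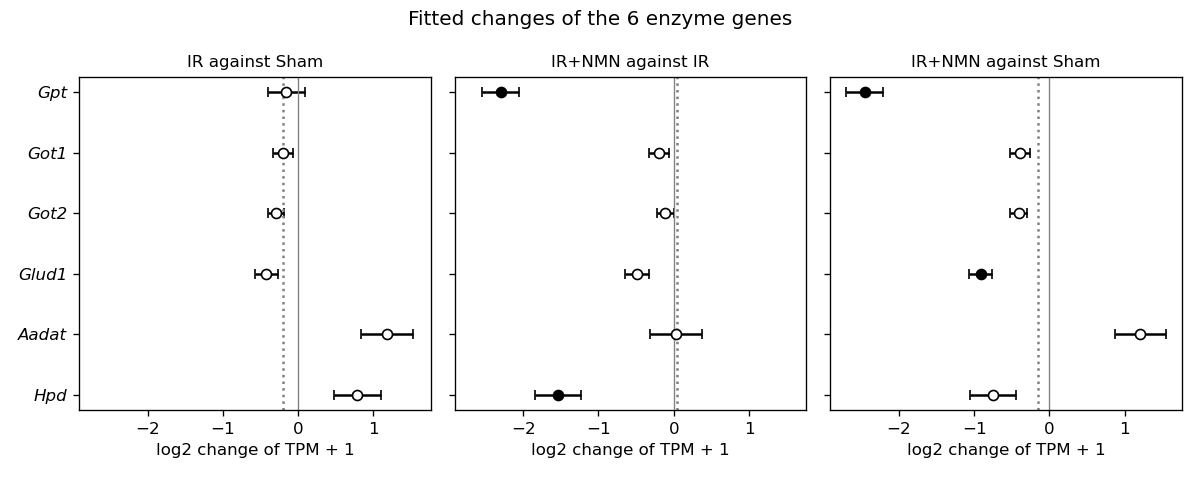
Fitted log2 change of TPM + 1 of the 6 genes in the 3 comparisons, with bars of 1 SE; filled points passed the threshold over all genes, open points did not, and the dotted line is the median of all genes. Gpt (-2.30) and Hpd (-1.53) are filled in IR+NMN against IR, Gpt (-2.45) and Glud1 (-0.91) in IR+NMN against Sham, and no point is filled in IR against Sham.

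Gpt, the alanine transaminase gene, was at 20.3, 23.1 and 12.4 TPM in Sham 1 to 3, at 16.6, 17.7 and 14.1 TPM in IR, and at 2.18, 3.52 and 1.92 TPM in IR+NMN. Sham and IR overlapped, and all 3 IR+NMN libraries lay far below both. Mean levels were 18.6 ± 5.52, 16.1 ± 1.82 and 2.54 ± 0.856 TPM (SD, n = 3), which is 6.36 times lower in IR+NMN than in IR. On the log2 scale Gpt changed by -0.16 (SE 0.24) between Sham and IR, by -2.30 (SE 0.24) between IR and IR+NMN and by -2.45 (SE 0.24) between Sham and IR+NMN. The first of these turned to 0.081 under quantile normalization and 0.054 under median-of-ratios scaling. Between IR and IR+NMN, 0.0% of the 10180 tested genes had a lower change.

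The table holds 3 rows for Gpt, and 1 of them carried the difference. Row 1 had 14.8 ± 5.41 TPM in Sham and 12.5 ± 1.52 TPM in IR, but 0.0432, 0.0844 and 0.0264 TPM in the 3 IR+NMN libraries. It made up 79.7% of the Gpt level in Sham, 77.5% in IR, but 2.02% in IR+NMN. The other 2 rows summed to 3.77 ± 0.282 TPM in Sham, then 3.63 ± 0.391 in IR and 2.49 ± 0.827 in IR+NMN, with IR 3 (3.36 TPM) below IR+NMN 2 (3.43 TPM). Without row 1 the log2 change between IR and IR+NMN was -0.43, against -3.68 for row 1 alone, and without it Gpt passed in no comparison. The table gives no identifier that tells the rows of a symbol apart, so whether row 1 is another transcript, another locus or a split of the same reads cannot be told apart. Rows whose 3 libraries in 1 group lay more than 5-fold above those of another numbered 339, which is 2.02% of the 16806 rows at 1 TPM or more in all 3 libraries of some group.

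**Figure D3:**
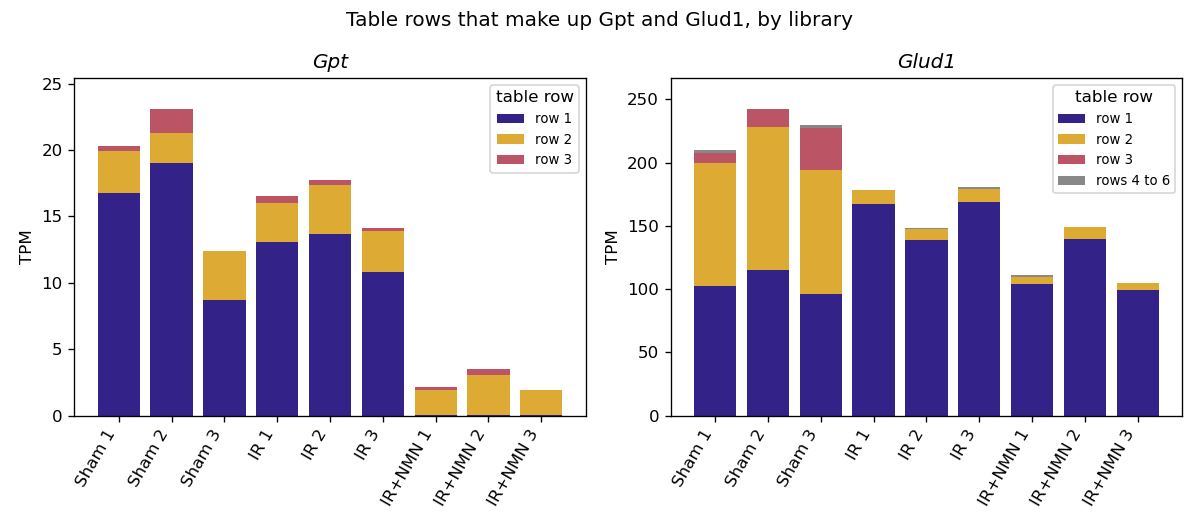
Stacked TPM of the table rows of Gpt (left, 3 rows) and Glud1 (right, 6 rows) in each library, rows ordered by mean level. Row 1 of Gpt is near 0 in the 3 IR+NMN libraries, and rows 2 and 3 of Glud1, which hold 121 TPM in Sham, hold 9.90 TPM in IR and 6.76 TPM in IR+NMN.

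Gpt2, the mitochondrial alanine transaminase gene, did not pass in any comparison, at 16.2 ± 3.38 TPM in Sham, then 16.3 ± 2.22 in IR and 12.8 ± 4.75 in IR+NMN (adjusted p from limma = 0.960 from Sham to IR, 0.671 from IR to IR+NMN and 0.374 from Sham to IR+NMN). Its log2 change between IR and IR+NMN was -0.37 (SE 0.25), and IR+NMN 2 (18.2 TPM) lay among the IR libraries. Whether Gpt and Gpt2 differed in their change was not tested.

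Got1 was at 266, 262 and 235 TPM in Sham, at 257, 192 and 219.7 TPM in IR, and at 189.7, 212 and 179 TPM in IR+NMN. The order of the means was Sham, IR, IR+NMN (254 ± 17.0, 223 ± 32.4 and 193 ± 16.7 TPM), with IR overlapping both neighbours and Sham lying wholly above IR+NMN. The changes were -0.20 (SE 0.13) from Sham to IR, -0.20 (SE 0.13) from IR to IR+NMN and -0.39 (SE 0.13) from Sham to IR+NMN. In the first, Got1 lay at the median of all genes, since 50.8% of genes had a lower change, and under median-of-ratios scaling it was 0.023.

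Got2, its mitochondrial partner, was at 189.7, 197 and 186 TPM in Sham, at 174, 138 and 157 TPM in IR, and at 149.6, 145 and 137 TPM in IR+NMN. All Sham libraries were higher than all others, and IR and IR+NMN overlapped. Its changes were -0.29 (SE 0.11), -0.11 (SE 0.11) and -0.41 (SE 0.11) in the same order. Under median-of-ratios scaling the first was -0.073 and the last -0.26, and the last passed with the highest row and without IR 1. The ratio of Got1 to Got2 in TPM was 1.26 to 1.40 in Sham, then 1.40 to 1.48 in IR and lastly 1.27 to 1.46 in IR+NMN. Over all libraries log2(TPM + 1) of Got1 and Got2 had a Pearson r of 0.924, while Glud1 had 0.887 with Got1 and 0.879 with Got2. The genes closest to each, given below, had 0.971 to 0.982. The upstream windows shown above differ in their CCAAT and GGGCGG matches, and the files hold no measurement at these windows.

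Cell type markers differed between the groups as well. By mean of their sums, neuronal and endothelial markers fell in the order Sham, IR, IR+NMN, as Got1 and Got2 did. From IR to IR+NMN the median change was -0.22 for the 10 neuronal markers. For the 6 tested endothelial markers it was 0.25, opposite in direction to their sum (105 ± 11.2 TPM in IR and 102 ± 20.8 in IR+NMN). The other lists below did not follow that order. Summed TPM of the 10 neuronal markers was 5537 to 6997 in Sham, then 4374 to 6870 in IR and lastly 4036 to 5008 in IR+NMN, with 0 of 10 markers past the threshold between Sham and IR and 2 lower between Sham and IR+NMN. Red blood cell markers summed to 4078 to 9333 TPM in Sham, then 732 to 899.9 in IR and lastly 825 to 1011 in IR+NMN, and 5 of 6 fell in either group against Sham. Oligodendrocyte markers summed to 5888 to 12851 TPM in Sham, 4076 to 7691 TPM in IR and 3596 to 9088 TPM in IR+NMN, with 1 of 8 lower in either group against Sham. Endothelial markers ran from 135 to 188 TPM in Sham, 92.9 to 115 TPM in IR and 84.1 to 125 TPM in IR+NMN, with 2 of 6 lower in IR and 3 of 6 in IR+NMN. The 5 choroid plexus and ependyma markers ran from 27.7 to 48.1 TPM in Sham, 2.47 to 3.41 TPM in IR and 6.91 to 9.80 TPM in IR+NMN, with 2 of 2 tested lower in IR and 1 in IR+NMN. Of 8 microglial and macrophage markers 1 was higher in IR, and 2 were higher and 2 lower in IR+NMN, against Sham. Astrocyte markers summed to 3794 to 4918 TPM in Sham, 5302 to 7041 TPM in IR and 6147 to 8618 TPM in IR+NMN. Against Sham, 0 of 8 passed in IR and 1 was higher in IR+NMN, with median changes of 0.12 and -0.59. Over all genes 6.39% were called in IR and 10.3% in IR+NMN, against Sham. No marker of these lists was at 0 in all libraries. Their part in the levels of Got1 and Got2 was not tested, and fewer cells of a type and less RNA per cell cannot be told apart in bulk RNA.

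Glud1, the glutamate dehydrogenase gene, which is abundant in astrocytes, was at 210.3, 242 and 230.1 TPM in Sham, at 179, 149 and 181 TPM in IR, and at 111, 149 and 105 TPM in IR+NMN. Sham lay above both other groups, and IR+NMN 2 lay within the IR range. Means were 228 ± 16.2, 169 ± 18.1 and 122 ± 23.9 TPM, with log2 changes of -0.43 (SE 0.15), -0.49 (SE 0.15) and -0.91 (SE 0.15) in the order used for Got1.

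The rows of Glud1 did not move alike. Row 1 of 6 was at 105 ± 9.94 TPM in Sham, at 159 ± 16.9 in IR, and at 114 ± 21.7 in IR+NMN. It was at 168, 139 and 169 TPM in the IR libraries, all above the Sham range of 95.9 to 115 TPM. Row 2 was at 97.5, 113 and 98.0 TPM in Sham, between 8.39 and 11.0 in IR, and between 5.11 and 9.55 in IR+NMN. Row 3 was at 8.11, 13.8 and 33.5 TPM in Sham and was listed at 0 in the 6 other libraries. Without rows 2 and 3, the change between Sham and IR turned from -0.43 to 0.58 and that between Sham and IR+NMN from -0.91 to 0.098, and neither passed. With the highest row alone they were 0.60 and 0.12. The change between IR and IR+NMN kept its size, at -0.48 without these rows.

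Aadat, the kynurenine and aminoadipate transaminase gene, was at 4.42, 3.23 and 1.90 TPM in Sham, at 10.8, 8.75 and 5.77 TPM in IR, and at 6.75, 13.8 and 6.16 TPM in IR+NMN. All 6 libraries with the occlusion were above all 3 Sham libraries, and IR and IR+NMN overlapped. Mean TPM was 3.19 ± 1.26 in Sham, then 8.42 ± 2.51 in IR and 8.91 ± 4.27 in IR+NMN. The log2 changes were 1.18 (SE 0.34) and 1.21 (SE 0.34) for IR and IR+NMN against Sham, and 0.028 (SE 0.34) between the last 2 groups, which was -0.10 under quantile normalization and -0.040 under median-of-ratios scaling. Neither change against Sham passed, but both did under quantile normalization and median-of-ratios scaling, which remove the shift of the median gene, and the first did without IR+NMN 2. Row 1 of 2 held 100.0% of the Aadat level in each group.

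The related transaminase genes Kyat1 and Kyat3, whose enzymes also accept kynurenine, were not past the threshold. Kyat1 was at 8.75 ± 2.52 TPM in Sham, then 14.3 ± 4.41 in IR and 10.1 ± 2.38 in IR+NMN, with a change of 0.65 (SE 0.26) between Sham and IR (adjusted p from limma = 0.148). It passed under quantile normalization, under median-of-ratios scaling and with its highest row alone. Kyat3 was at 16.5 ± 3.32, 21.1 ± 4.79 and 16.4 ± 3.64 TPM (adjusted p = 0.352, 0.644 and 0.969).

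Hpd, the tyrosine breakdown gene, was low throughout, at 0.889, 1.62 and 1.68 TPM in Sham, at 2.25, 2.84 and 4.46 TPM in IR, and at 0.302 and 1.16 TPM in IR+NMN 1 and 2, while IR+NMN 3 listed it at 0. IR lay above both other groups, which overlapped. The changes were 0.79 (SE 0.31) between Sham and IR, -1.53 (SE 0.31) between IR and IR+NMN and -0.75 (SE 0.31) between Sham and IR+NMN. On a scale of TPM + 1 these understate changes at such levels. The level was spread over 4 rows, of which row 4 was at 1.02 TPM in Sham 3 and near 0 elsewhere, and the first 3 were each higher in mean in IR than in both other groups (1.57, 1.18 and 0.436 TPM in IR, against 0.532, 0.419 and 0.107 in Sham and 0.166, 0.278 and 0.0427 in IR+NMN). Its relative Hpdl was at 3.63 ± 0.569, 4.30 ± 0.335 and 3.84 ± 0.545 TPM and did not pass (adjusted p = 0.396, 0.861 and 0.794).

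Of 7 hepatocyte markers Apoa2 and Fgb were at 0 in all libraries, and the 7 summed to 2.62 to 6.94 TPM in Sham, then 4.31 to 16.5 in IR and lastly 2.08 to 7.91 in IR+NMN. Most of the sum in IR was Alb, at 3.80, 15.8 and 15.2 TPM. Of the 8 astrocyte markers 0 passed between IR and IR+NMN, and their median change was -0.58. Their summed TPM, opposite in direction to that median, was 5302 to 7041 in IR, with 6147 to 8618 in IR+NMN. Within that sum the marker Gfap was at 2645, 1336 and 666 TPM in IR and at 4121, 4634 and 4315 in IR+NMN. The part of these cells in the level of Hpd was not tested.

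Leaving out any of IR 2, IR 3, IR+NMN 1 and IR+NMN 3 ended the call of Gpt between IR and IR+NMN, with changes of -2.49 to -2.17 over all fits that left out 1 library. Without any of these libraries, 0 of all tested genes were called in this comparison, so the loss was not particular to Gpt. The call of Gpt between Sham and IR+NMN held without any single library, as did that of Glud1. Both of these calls ended without rows that differ 5-fold between groups, and that of Glud1 also with the highest row alone. The call of Gpt between IR and IR+NMN ended without the 5-fold rows too. Hpd lost its call without any 1 library except IR 1 and IR+NMN 2, with changes of -1.84 to -1.29. A pseudocount of 0.1, quantile normalization, median-of-ratios scaling and a fit to IR and IR+NMN alone each ended the call of Hpd as well. Without IR+NMN 2, Glud1 also passed between IR and IR+NMN and Hpd between Sham and IR+NMN.

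The genes closest in pattern to each member over the 9 libraries, by Pearson correlation of log2(TPM + 1), describe these libraries alone. For Gpt they were Eci2, Tmem255b and Gna14 (r = 0.963, 0.932 and 0.919), of which Eci2 was at 26.3 ± 2.08 TPM in Sham, then 25.2 ± 0.915 in IR and 18.7 ± 1.61 in IR+NMN. For Got1 they were Fgf13, Sdha and Otub1 (0.981, 0.980 and 0.980) and for Got2 Eno2, Atp6v0c and Ap2m1 (0.982, 0.978 and 0.971). For Glud1 they were Agt, S1pr1 and Naa80 (0.986, 0.985 and 0.982), and Agt was at 172 ± 12.2, 102 ± 25.8 and 46.1 ± 23.9 TPM. For Aadat they were Nmnat3, Rad18 and Atf5 (0.968, 0.961 and 0.960), and Atf5 was at 51.6 ± 11.9, 108 ± 29.6 and 119.9 ± 25.3 TPM. For Hpd they were Gjb6, Slc25a34 and Aldoc (0.983, 0.969 and 0.962), and Gjb6 was at 33.2 ± 5.53, 64.2 ± 17.7 and 21.3 ± 12.8 TPM. All points share the same libraries and the same 3 groups, and the genes were picked as the highest of 10180. For Gpt and Glud1 the summed level was used, so row 1 of Gpt and rows 2 and 3 of Glud1 shape these patterns. Row 1 of Glud1 was higher in IR than in Sham (159 and 105 TPM), where Agt was lower.

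The wider amino acid pathways were read from 6 textbook lists of 111 genes without the 6 members, of which 98 were in the table and 82 were tested. The lists were chosen with earlier results of these data known, so their shares beside all genes are descriptions. In IR 2 of 82 rose from Sham and 1 fell, which is 3.66% against 6.39% of all genes. This order depended on the setting, with 7 of 82 against 561 of 10180 genes under median-of-ratios scaling, 6 of 82 against 582 under quantile normalization and 7 of 82 against 736 of 10074 with the highest row. Their median change was 0.012 while that of all genes was -0.21. Acat1, the mitochondrial acetoacetyl-CoA thiolase of isoleucine and ketone body breakdown, fell from 107, 94.5 and 92.4 TPM in Sham to 43.3, 43.5 and 43.7 in IR (log2 change -1.15, SE 0.11, adjusted p from limma = 0.00150). It was also lower in IR+NMN than in Sham, at 41.0, 48.7 and 41.3 TPM (-1.15, SE 0.11, adjusted p = 0.00122). All 6 libraries with the occlusion lay far below the Sham libraries, and both calls held in each of the 19 alternatives. Row 1 of its 4 rows had 81.9 ± 7.38 TPM in Sham and 41.4 ± 0.145 TPM in IR, and 1 of its minor rows passed the 5-fold difference.

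Cdo1, the cysteine dioxygenase of taurine synthesis, rose from 109, 86.0 and 61.5 TPM in Sham to 294, 176 and 163 in IR (1.28, SE 0.26, adjusted p = 0.0299). It was at 244, 186 and 227 TPM in IR+NMN (1.38 against Sham, SE 0.26, adjusted p = 0.0159), so that every library with the occlusion lay above the Sham range. The first call ended without any of Sham 2, Sham 3, IR 2, IR 3 and IR+NMN 3 (reaching an adjusted p of 0.113) and the second without Sham 2, IR+NMN 1 or IR+NMN 3 (up to 0.0700). Maoa, a monoamine oxidase, rose from 36.4 ± 2.48 to 54.0 ± 4.50 TPM between Sham and IR (0.55, SE 0.13, adjusted p = 0.0394) and was at 51.7 ± 6.51 in IR+NMN (0.49 against Sham, SE 0.13, adjusted p = 0.0423). Its first call was lost without any Sham or IR library or IR+NMN 3 (up to 0.154), and its second without any library but IR 1 (up to 0.158). Both were lost with the highest row, and the second also in the fit to Sham and IR+NMN alone.

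From IR to IR+NMN 2 of the 82 rose and 0 fell, which is 2.44% against 2.36% of all genes, with 56 of the 82 changes below 0 and a median of -0.11 against 0.041 for all genes. Odc1, the ornithine decarboxylase that starts polyamine synthesis, was at 72.2, 61.5 and 52.3 TPM in IR and rose to 137, 97.2 and 133 in IR+NMN (0.97, SE 0.17, adjusted p from limma = 0.0268). Aldh18a1, which starts proline and ornithine synthesis from glutamate, rose from 17.9 ± 1.25 to 30.1 ± 4.29 TPM (0.71, SE 0.13, adjusted p = 0.0295). In both genes all IR+NMN libraries were above all IR libraries. Leaving out any of Sham 2, IR 2, IR 3, IR+NMN 1 and IR+NMN 3 ended both calls, and Sham 1 that of Aldh18a1 too (reaching an adjusted p of 0.145 and 0.163). Quantile normalization, median-of-ratios scaling and a fit to IR and IR+NMN alone each ended both calls as well. Without IR+NMN 2 the count was 12 of 82, 10 of them lower, where 496 of 10180 genes were called and 128 of these were lower.

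In lists where limma called 0 genes between IR and IR+NMN, the gene with the smallest p was named. In the list of shuttle partners it was Slc25a18, a mitochondrial glutamate carrier that is not itself a component of the shuttle. Slc25a12 and Slc25a13 of that list were not among the symbols measured. Slc25a18 was at 36.8, 36.9 and 68.6 TPM in IR and at 22.8, 28.3 and 11.0 in IR+NMN (-1.19, SE 0.37, adjusted p = 0.166). Among phenylalanine and tyrosine genes the smallest p was that of Gstz1, a maleylacetoacetate isomerase downstream of Hpd, at 27.5 ± 4.60 and 18.5 ± 3.11 TPM (-0.55, SE 0.17, adjusted p = 0.151). In the tryptophan and lysine list it was Aass, which starts lysine breakdown, at 4.81 ± 0.547 and 2.88 ± 1.76 TPM (-0.67, SE 0.27, adjusted p = 0.313, and 0.00939 without IR+NMN 2). In the branched-chain list it was the enoyl-CoA hydratase gene Echs1, at 71.7 ± 2.13 and 55.5 ± 9.90 TPM (-0.38, SE 0.14, adjusted p = 0.261, and 0.0488 without IR+NMN 2). The unadjusted p was under 0.05 in 1 of 5, 1 of 9, 2 of 8 and 2 of 20 tested genes of these lists, and in 0 of 11 of the glutamate list, where it was 13.3% over all genes.

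From Sham to IR+NMN 5 of the 82 rose and 4 fell, which is 11.0% against 10.3% of all genes, with a median of -0.099 against -0.14. In the glutamate list, Gad1, the glutamate decarboxylase of GABA synthesis and also 1 of the 10 neuronal markers, fell from 119 ± 11.0 to 72.9 ± 7.70 TPM (-0.70, SE 0.17, adjusted p from limma = 0.0337). Glul, the astrocytic glutamine synthetase, was at 809, 909.9 and 740.2 TPM in Sham and 1162, 1435 and 1192 in IR+NMN (0.62, SE 0.16, adjusted p = 0.0452). Gad1 was thus below, and Glul above, the Sham range in all 3 IR+NMN libraries. Both calls were lost without any Sham library, IR 3, IR+NMN 1 or IR+NMN 3 (reaching 0.130 for Gad1 and 0.123 for Glul). That of Glul also ended without IR+NMN 2, under quantile normalization, with the highest row and in a fit to both groups alone. Summed astrocyte markers were 3794 to 4918 TPM in Sham and 6147 to 8618 in IR+NMN, with 1 of 8 higher. Within that sum the marker Gfap was at 801, 498 and 394 TPM in Sham and at 4121, 4634 and 4315 in IR+NMN. The median change of the 8 was -0.59, opposite in sign to the sum, and their part in the level of Glul was not tested.

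Slc25a18 fell from 65.2 ± 17.6 TPM in Sham to 20.7 ± 8.86 in IR+NMN (-1.67, SE 0.37, adjusted p = 0.0272), which no longer passed without Sham 2, Sham 3, IR+NMN 1 or IR+NMN 3 (up to 0.104). Odc1 was higher than in Sham as well (1.12, SE 0.17, adjusted p = 0.00694), and this call held in each of the 19 alternatives. Without IR+NMN 2 the count was 26 of 82, 22 of them lower, where 2168 of 10180 genes were called and 1594 of these were lower. It was 2 of 82 without Sham 2, IR+NMN 1 or IR+NMN 3.

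**Figure D4:**
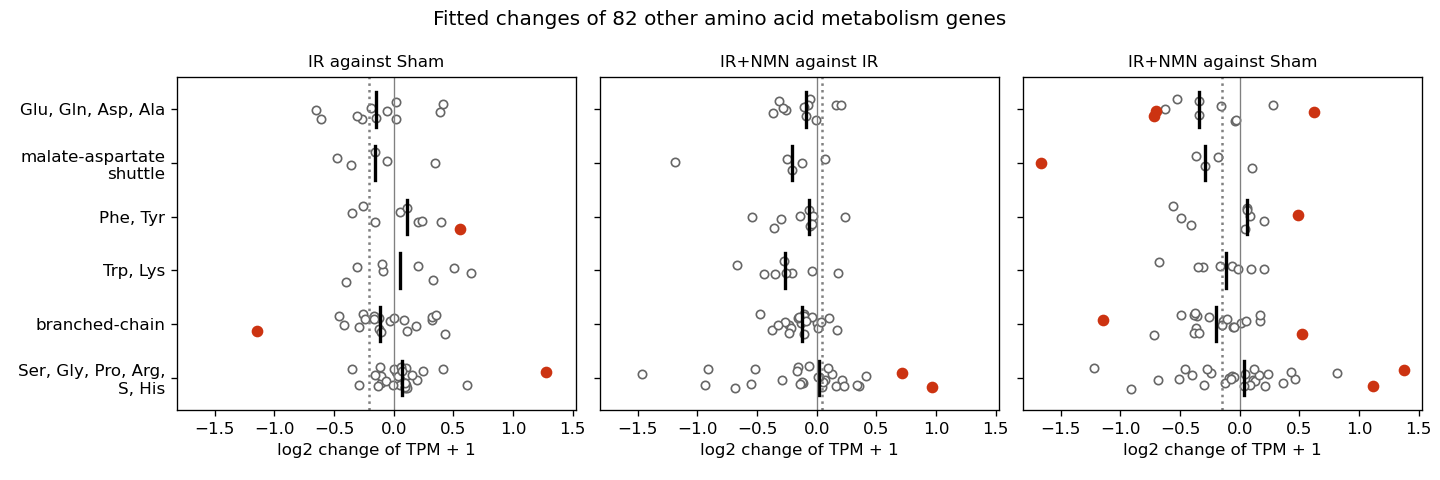
Fitted log2 change of TPM + 1 of 82 other amino acid genes by list and comparison; filled points passed the threshold over all genes, the short black lines are list medians and the dotted line is the median of all genes. In IR against Sham the 3 filled points are Acat1 (-1.15), Maoa (0.55) and Cdo1 (1.28), and in IR+NMN against IR the 2 are Aldh18a1 (0.71) and Odc1 (0.97).

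In IR against Sham limma called 0 genes in 3 lists, and the smallest p belonged to Gad1 (-0.61, SE 0.17, adjusted p = 0.0606, and 0.0333 without IR 1), to the malate dehydrogenase gene Mdh2 (-0.36, SE 0.11, adjusted p = 0.0859) and to Kyat1. The unadjusted p was under 0.05 in 4 of 11, 1 of 5 and 1 of 8 genes of these lists, where it was 28.3% over all genes. Mdh2, which works beside Got2 in the shuttle, was at 444, 375 and 389 TPM in Sham and at 330.3, 289.5 and 318 TPM in IR, and the groups lay apart. In the tryptophan and lysine list limma also called 0 of 8 between Sham and IR+NMN. An unadjusted p under 0.05 was held by 29.9% of all genes and by 1 of the 8. This was Dhtkd1, a dehydrogenase subunit acting after Aadat in lysine breakdown, at 6.83 ± 1.16 and 3.98 ± 1.36 TPM (-0.68, SE 0.20, adjusted p = 0.0638), and it passed under median-of-ratios scaling and without IR+NMN 2.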

How the data were processed

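RNA sequencing measured 9 rat brain libraries, amplified by Smart-Seq2 from RNA with an integrity number of at least 5.8, per the labels' protocols. The authors deposited TPM values, scaled to the same total per library, over 131003 rows. STAR, Cufflinks and the human build hg38 are named in the submitters' processing notes although the samples are rat. No version or annotation is given by the sources used here. TPM keeps no depth, so no counting interval is given.

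Rows with a symbol (27683) were summed per symbol, and 10180 symbols with at least 1 TPM in at least 3 libraries were tested. limma 3.58.1 (R 4.3.3, with the data.table package in version 1.17.8) was fitted to log2(TPM + 1) of all 9 libraries with 1 mean per group, an intensity trend and robust variances, and p-values are two-sided and adjusted within each comparison. Tables and figures used Python 3.11.15, pandas 2.3.3, numpy 2.4.6 and matplotlib 3.10.9. The fit was tested on simulated data.

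The 6 genes and all lists were chosen with earlier results of these data known. Named list genes were, per list and comparison, up to 4 called genes with the smallest p, or the 1 with the smallest p where none was called, besides relatives of the 6 genes and the 3 genes of closest pattern, clone names left out. Some genes that the rule names are not reported here. Got1l1, a relative, was under the filter. Row differences within Gpt and Glud1, and within Acat1, were looked at after their values were seen. Alternatives changed the pseudocount, filter, scaling, row choice, samples, moderation, block and libraries.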

Additional observations from a re-analysis of the deposited data

How the results depend on the processing

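Of 336 changes of the 6 genes recomputed over 19 alternatives, 320 moved by less than the residual SD, 14 moved by more, and in 2 a called change turned its sign. Both were Glud1 between Sham and IR+NMN, 0.12 with the highest row and 0.098 without rows that differ 5-fold between groups, an alternative chosen after seeing the data, and their construction, which leaves out rows high in Sham, accounts for them. Uncalled changes that turned were Glud1 between Sham and IR under the same alternatives (0.60 and 0.58), Got1 between Sham and IR under median-of-ratios scaling (0.023), Gpt between Sham and IR under both scalings (0.081 and 0.054) and without Sham 2 (0.014), and Aadat between IR and IR+NMN under both scalings (-0.10 and -0.040), without IR 3 (-0.19) and without IR+NMN 2 (-0.30).

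Genes called between Sham and IR numbered 651, and 100 with the replicate block and 74 to 1138 with 1 library left out (Sham 1 gave 253, Sham 2 gave 82, Sham 3 gave 136, IR 1 gave 1138, IR 2 gave 74, IR 3 gave 82, IR+NMN 2 gave 1128 and IR+NMN 3 gave 287). Between IR and IR+NMN they numbered 240, and 7 under quantile normalization, 73 under median-of-ratios scaling, 2 in a fit to both groups alone, 33 with the block and 0 to 496 with 1 library left out (IR 2, IR 3, IR+NMN 1 and IR+NMN 3 each gave 0, Sham 1 gave 132, Sham 2 gave 97 and IR+NMN 2 gave 496). Between Sham and IR+NMN they numbered 1053, and 620 in a fit to both groups alone, 499 with the block and 276 to 2168 with 1 library left out (Sham 1 gave 685, Sham 2 gave 287, Sham 3 gave 459, IR 3 gave 681, IR+NMN 1 gave 374, IR+NMN 2 gave 2168 and IR+NMN 3 gave 276).

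Of the 6 genes, those called between Sham and IR (0) were 1 with quantile normalization and with median-of-ratios scaling, and 0 to 1 without 1 library. Between IR and IR+NMN (2) there was 1 with a pseudocount of 0.1, with at least 5 TPM in at least 3 libraries, with either scaling, with the highest row, in a fit to both groups alone, with the block and without rows that differ 5-fold, and 0 to 3 without 1 library. With the 5 TPM filter and with the highest row Hpd was not tested. Between Sham and IR+NMN (2) there were 0 without rows that differ 5-fold and 2 to 3 without 1 library. Of the 82 other amino acid genes, those called between Sham and IR (3) were 6 with quantile normalization, 7 under median-of-ratios scaling and also with the highest row, 5 without rows that differ 5-fold and 1 to 5 without 1 library. Between IR and IR+NMN (2) they were 0 with either scaling, in a fit to both groups alone and with the block, and 0 to 12 without 1 library. Between Sham and IR+NMN (9) they were 3 with the block and 2 to 26 without 1 library. Apart from what construction explains, the cause of these shifts was not tested.

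A pairing of the libraries by replicate number was not shown, and correlations with 3 libraries per group cannot exclude one. Deviations of same-numbered libraries correlated at 0.40, -0.32 and 0.49 between Sham and IR and at -0.57, -0.19 and -0.15 between IR and IR+NMN. Between Sham and IR+NMN they correlated at -0.51, 0.14 and -0.059. Not every library correlated best with its own number. With the number as a block, Hpd, Odc1 and Aldh18a1 were not called between IR and IR+NMN, nor Maoa between Sham and IR, nor Gad1, Glul, Slc25a18 and Maoa between Sham and IR+NMN. An edgeR quasi-likelihood test was listed for the case of counts and was not run, because the files hold TPM.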
